A study of Mus musculus with 4 samples.

Results

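The mitochondrial ribosomal protein genes are the nuclear genes whose symbols begin with Mrpl or Mrps followed by a digit. Of 22180 genes read by a transcript cluster (a set of probes for 1 transcript region) with a single gene symbol, 71 had such a symbol, and each was represented by its brightest cluster. The choice used symbols only and no measured difference. The RefSeq table held 78 protein-coding genes of this kind. The other 7 (Mrpl30, Mrpl33, Mrpl41, Mrpl43, Mrpl44, Mrpl53 and Mrps6) were read only by clusters that also carry another gene's symbol and were left out. A filter on low intensity kept 69 of the 71 members and 13258 genes in all.

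The study profiled gastrocnemius muscle, a calf muscle, on Affymetrix arrays with 1 array in each of 4 groups. WT mice received sodium citrate vehicle or streptozotocin (STZ), a toxin of pancreatic beta cells that makes mice diabetic, and so did mice that lack the transcription factor KLF15 in skeletal muscle (KO). STZ was given at 50 mg/kg by intraperitoneal injection on consecutive days, and muscle was collected 3 weeks after treatment. The sources used here do not state which promoter drives the muscle deletion, the strain, age and sex of the mice, or how many mice stand behind each array. With 1 array per group no difference below has a replicate check, no error between animals can be given, and no test was made. Higher and lower describe 1 array against another.

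Values for the 4 arrays are listed throughout in the order WT vehicle, WT STZ, KO vehicle, KO STZ. Klf15 itself had intensities of 50.5, 72.1, 19.8 and 16.04, so both arrays labelled KO were below both arrays labelled WT. Skeletal muscle markers such as Acta1 and Ckm were all bright, and their summed intensity over 10 of 10 genes lay between 52722 and 54541. Summed slow-fibre markers (6 of 6 genes) were 887, 958, 670 and 567, and so lower on both KO arrays. Summed adipocyte markers (5 of 6 genes on the array) were 159.9, 168.6, 195.5 and 118.8. Macrophage markers summed to 246 to 307, endothelial markers to 593 to 694 and fibroblast markers to 2876 to 3356. Dcn made up most of the fibroblast sum. Col1a1 had 424.5, 398.7, 721.3 and 755.8 and Col3a1 279.7, 268.4, 437.6 and 457.4. Both collagen genes were thus higher on both KO arrays. The other fibroblast markers did not share this order. Dcn had 1746, 1972, 1694 and 1670, and Dpt 292.6, 342.3, 286.9 and 317.4. Pdgfra had 89.5, 107.1, 109.0 and 101.9, and Lum 43.9, 55.0, 46.2 and 53.7. For each of these the KO STZ value was below the WT STZ value. No marker was at 0 on any array. The part of fibre type and other cells in the differences below was not tested. In whole muscle, fewer cells of a type and less RNA per cell cannot be told apart.

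Mitochondrial ribosomes make the few proteins encoded by mitochondrial DNA, all of them core subunits of the oxidative phosphorylation complexes. Their RNA comes from mitochondrial DNA, while every protein is encoded in the nucleus, made in the cytosol and imported. The small subunit binds the messenger RNA and reads its codons, and the large subunit joins amino acids and passes the new chain out through an exit tunnel at the inner membrane. Many of these proteins have counterparts in bacterial ribosomes, and the others are found only in mitochondria. Muscle holds many mitochondria, and the nuclear factors NRF1, the ETS-family factor GABP and the coactivator PGC-1alpha are known regulators of genes for mitochondrial proteins.

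By the known structure of the mammalian mitochondrial ribosome, 25 members belong to the small subunit and 45 to the large one. Mrps30 and Mrps18a sit in the large subunit in spite of their names. Mrps36 was counted with neither subunit, because its product is now described as a part of the 2-oxoglutarate dehydrogenase complex.

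The promoters show what many members share beyond their symbol, and 5 of them are printed, from genes described further on. Mrpl32, Mrpl39 and Mrps18b show the NRF1-type letters, Mrps18a the ETS-type letters, and Mrpl23, which had the widest range over the arrays, shows a window with neither. RefSeq promoters on build GRCm38.p6, which run from 250 bases before to 50 bases after the annotated start, were held for 62 of the 71 members. The sources used here do not name a build for the array. Each line below is 150 bases, 5′ to 3′ on the strand of the gene. The windows of Mrpl32, Mrpl39, Mrps18a and Mrpl23 end 1 base before the start, and that of Mrps18b ends 101 bases before it. Capitals mark the letters GCGCATGCG of an NRF1-type motif or CCGGAAG of an ETS-type motif, on either strand.
Mrpl32 (chr13:14613038-14613187, strand -): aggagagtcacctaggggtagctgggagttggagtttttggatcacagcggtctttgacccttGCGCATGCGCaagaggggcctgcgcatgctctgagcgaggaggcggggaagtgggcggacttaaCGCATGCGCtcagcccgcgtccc
Mrpl39 (chr16:84735245-84735394, strand -): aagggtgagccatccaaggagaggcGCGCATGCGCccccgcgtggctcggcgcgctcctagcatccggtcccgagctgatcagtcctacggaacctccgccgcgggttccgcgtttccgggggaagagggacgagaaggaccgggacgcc
Mrps18b (chr17:35916541-35916690, strand -): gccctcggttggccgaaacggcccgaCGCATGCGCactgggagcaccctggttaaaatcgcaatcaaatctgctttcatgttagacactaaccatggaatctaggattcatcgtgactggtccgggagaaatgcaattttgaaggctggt
Mrps18a (chr17:46110854-46111003, strand +): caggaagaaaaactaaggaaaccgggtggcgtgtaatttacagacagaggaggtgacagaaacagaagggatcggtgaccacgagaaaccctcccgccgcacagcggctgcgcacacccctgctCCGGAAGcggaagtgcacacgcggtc
Mrpl23 (chr7:142532882-142533031, strand +): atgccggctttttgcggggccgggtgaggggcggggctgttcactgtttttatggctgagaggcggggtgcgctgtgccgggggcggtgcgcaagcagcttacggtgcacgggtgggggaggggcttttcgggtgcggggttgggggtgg

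In Mrpl32 the NRF1-type letters begin 87 bases before the start, where they also read on the other strand, and again 23 bases before it. In Mrpl39 they begin 125 bases and in Mrps18b 224 bases before the start. Mrps18a has ETS-type letters 26 bases before the start. Neither the NRF1-type nor the ETS-type letters were found in the printed window of Mrpl23. No match says only that these letters are not in the window. The promoter of Mrpl23 does hold the KLF-type and GC-box-type letters described next, which the capitals do not mark.

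The NRF1-type letters were found in 7 of the 62 member promoters (11.3%), against 3.66% of 10370 genes that passed the level filter and 1.95% of all 27025 genes with a promoter. The 7 members were Mrpl9, Mrpl10, Mrpl17, Mrpl22, Mrpl32, Mrpl39 and Mrps18b. The ETS-type letters were found in 23 members (37.1%), against 17.8% and 9.93%. A YY1-type motif, AAGATGGCG, was found in 8 members (12.9%), against 3.19% and 1.64%. In all, 33 of the 62 members held at least 1 of these 3 motifs. A KLF-type motif, GGGNGTGG, was found in 15 members (24.2%), against 25.9% and 19.7%, and a GC-box-type motif, CCCNGCCC, in 18 members (29.0%), against 47.3% and 29.3%. Both strands were searched, matches of different motifs were allowed to overlap, and a match describes letters, not a bound site. The NRF1-type, ETS-type and YY1-type shares of the members lay above both comparison shares. The KLF-type share lay between them, and the GC-box-type share lay below that of genes that passed the filter and beside that of all genes. None of these differences was tested.

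**Figure D1:**
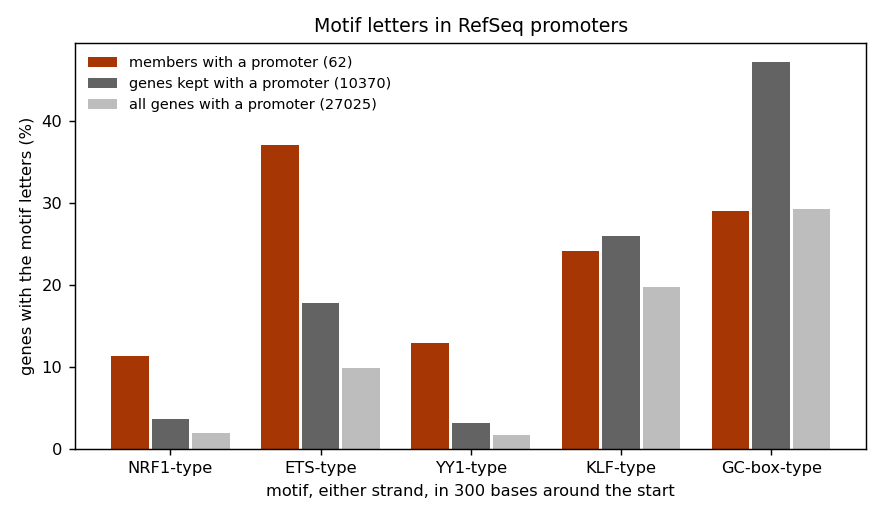
Share of genes, in percent, whose RefSeq promoter of 300 bases holds the letters of each motif type on either strand, for 62 members (dark red), 10370 genes that passed the level filter (dark grey) and all 27025 genes with a promoter (light grey). The ETS-type bar of the members stands at 37.1%, against 17.8% and 9.93%, and the GC-box-type bar at 29.0%, against 47.3% and 29.3%.

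On the WT arrays the members' intensities ran from 4.64 to 331 with vehicle and from 3.46 to 338 with STZ. On the KO arrays they ran from 4.63 to 271 with vehicle and from 3.66 to 284 with STZ. Their median over the 69 that passed was 85.0, 91.6, 89.3 and 86.3. The brightness of different probe sets does not rank transcripts, so these values show only that most members were read well above the level filter of 5.81. The brightest clusters were those of Mrps15, which binds small-subunit RNA in bacteria, of Mrpl42, Mrpl24 and Mrpl54, and of Mrpl18. The 5 dimmest were Mrpl48, Mrps18c, Mrpl27, Mrps14 and Mrps36, of which Mrps14 and Mrps36 did not pass the filter. Mrps14 had intensities of 5.65, 5.44, 4.82 and 5.44, and Mrps36 of 4.64, 3.46, 4.63 and 3.66.

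Differences are given on the scale of log2(intensity + 3.69), where the constant is percentile 25 of all values. This scale understates differences of dim genes. The members' ranges over the 4 arrays were not compared with those of other genes. Mrps24, a small-subunit protein, spanned 0.054 between its lowest and highest array, and Mrpl23, at the exit of the tunnel, spanned the most at 0.73. The WT STZ array was the highest of the 4 for 35 of 69 members, against 32.2% of all genes and 40.7% of genes of like level. Genes of like level are those in the same of 20 equal bins of mean log2 value. The KO STZ array was the lowest for 26 members, against 33.5% of all genes and 41.9% of genes of like level, and the highest for 11 (15.9%), against 19.5% of all genes and 11.3% of genes of like level. The WT vehicle array was the highest for 8 (23.3% of all genes, 22.1% of genes of like level) and the lowest for 16 (20.6% and 18.6%).

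**Figure D2:**
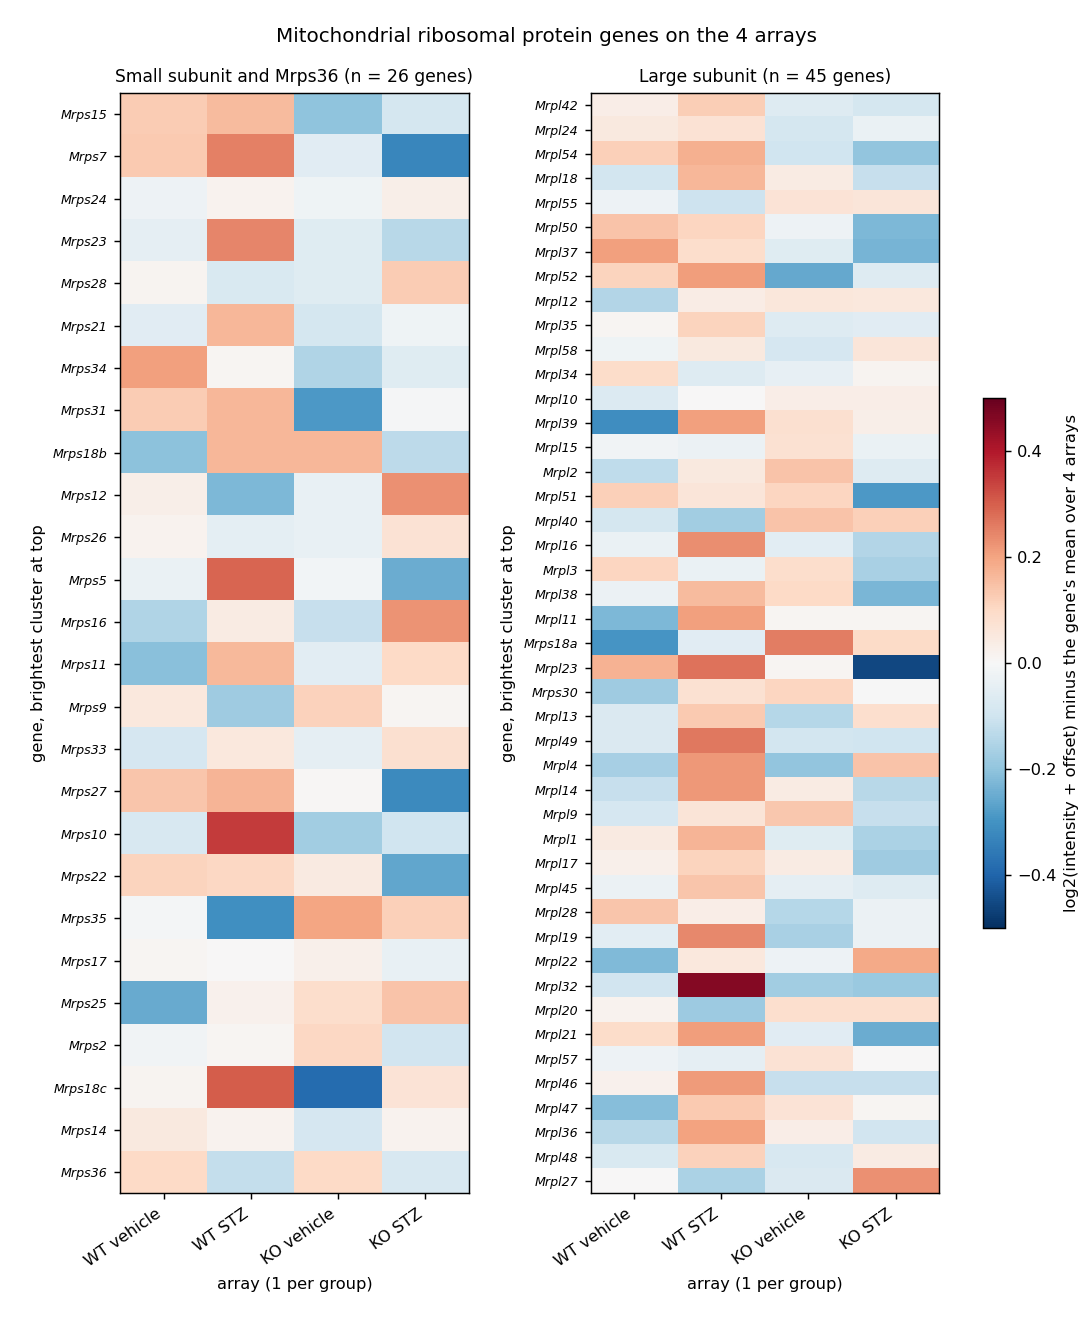
All 71 members on the 4 arrays, as log2(intensity + offset) minus the mean of the gene over the arrays (colour, blue lower and red higher), with small-subunit genes and Mrps36 at left and large-subunit genes at right, ordered by mean level. The WT STZ column holds the highest value for 35 of the 69 members that passed the filter, and the deepest blue is Mrpl23 in KO STZ.

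A rough view of how far readings of the same gene can part came from 8 members. These were read by a second single-symbol cluster that also passed the filter. For STZ against vehicle in WT, both clusters of a gene differed by 0.33 at the median (0.11 to 0.47), and they lay on opposite sides of 0 for 4 of 8 genes. For KO against WT the gap had a median of 0.25 under vehicle and 0.24 under STZ. Over 518 genes with at least 2 such clusters the median gap was 0.14 to 0.20 in the 4 pairwise comparisons. The second clusters were dimmer, and the offset shrinks differences of dim clusters. Clusters of a gene can also read different transcript regions, so a gap does not measure error alone. The 8 genes were Mrpl10, Mrpl12, Mrpl36, Mrpl47, Mrps5, Mrps16, Mrps17 and Mrps18b. For Mrpl36, for example, STZ against vehicle in WT gave 0.34 on the brighter cluster and -0.025 on the other, for Mrpl10 0.069 and -0.069, and for Mrps17 -0.0085 and 0.10. Many of the differences below are no larger than such gaps.

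The first comparison set STZ against vehicle in WT muscle. Of 69 members, 49 (71.0%) were above 0, against 51.5% of all genes and 57.5% of genes of like level. Their median was 0.12 against 0.0075 over all genes. At least 1.2-fold higher were 18, against 12.6% of all genes and 15.97% of genes of like level, and at least 1.2-fold lower was 1, against 8.73% and 7.41%. With quantile normalization of the arrays, these counts were 11 and 3 and the median was 0.057. Relative to genes of like level the median was 0.071, and it stayed between 0.062 and 0.077 in the 8 alternatives tried. No member reached 1.5-fold (1.27% of all genes were 1.5-fold higher, 0.445% lower), though with an offset of 1 in place of 3.69 Mrpl32 did, at 0.60.

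Mrpl32, a large-subunit protein that a mitochondrial protease matures, had intensities of 29.5, 45.1, 27.8 and 27.5. The WT STZ array stood above the 3 others, which were close together. Its difference of 0.56 (1.47-fold) was the largest of the members, and its promoter is among the sequences above. Mrpl39, a large-subunit protein found only in mitochondria, had 91.1, 131.8, 120.5 and 116.5, so WT vehicle was the low array, and its difference was 0.52. Mrps10, of the small-subunit head, had 42.1, 57.9, 39.2 and 41.4 and stood at 0.43. Mrpl11, at the base of the stalk that receives translation factors, had 85.0, 115.9, 100.8 and 100.6 and stood at 0.43 as well. Mrpl32 and Mrps10 were thus high on the WT STZ array alone, while Mrpl39 and Mrpl11 were low on the WT vehicle array. Mrpl4, which lines the exit tunnel in bacteria, had 60.2, 79.5, 58.8 and 75.3 and stood at 0.38 in WT and 0.34 in KO, so both STZ arrays were above both vehicle arrays.

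On the lower side in WT STZ, Mrps35 stood at -0.30, from 39.2 in WT vehicle to 31.2 in WT STZ, with 45.9 and 43.2 on the KO arrays. Mrps12, a protein of the decoding centre, had 106.4, 88.6, 101.3 and 122.7, which gave -0.25 in WT and 0.27 in KO. Mrps9 stood at -0.23, Mrpl20 at -0.20 and Mrps34 at -0.19. Of these 5 members, 4 belong to the small subunit.

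The 7 members with NRF1-type letters were all above 0 in WT STZ, with a median of 0.27 (0.069 to 0.56) and 4 at least 1.2-fold higher. This holds for their brightest clusters, since the second clusters of Mrpl10 and Mrps18b stood at -0.069 and -0.10. In WT STZ 51.5% of all genes and 57.5% of genes of the members' level were above 0. At least 1.2-fold higher were 12.6% and 15.97%. The 53 members without NRF1-type letters that passed and have a promoter had a median of 0.10, and 12 were 1.2-fold higher. The 23 with ETS-type letters had a median of 0.099 and the 37 without them one of 0.12. For the YY1-type letters the medians were 0.097 with and 0.12 without them, for the KLF-type letters 0.12 and 0.12, and for the GC-box-type letters 0.071 and 0.15. In KO STZ against WT STZ the KLF-type medians were -0.33 with (9 of 15 at least 1.2-fold lower) and -0.13 without (13 of 45). The GC-box-type medians there were -0.34 (11 of 16) and -0.12 (11 of 44), where 18.9% of all genes were 1.2-fold lower. Of genes of like level to all members, 26.5% were 1.2-fold lower, with a median of -0.12. Mrpl23, Mrps7 and Mrps27 hold both KLF-type and GC-box-type letters, so the 2 groups overlap. The motif groups were not recomputed under the alternative settings. For the 3 other motif types the medians in KO STZ against WT STZ lay between -0.19 and -0.13. Under vehicle, KO against WT gave -0.021 and -0.0045 for KLF-type and -0.016 and -0.010 for GC-box-type letters. The motif groups were formed with these results known, and their difference was not tested.

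The second comparison set STZ against vehicle in muscle without KLF15. The members were spread about 0, with a median of -0.020 against -0.032 over all genes, and 27 were above 0 (42.8% of all genes). At least 1.2-fold higher were 6, against 7.14% of all genes, and at least 1.2-fold lower were 7, against 12.7%. Under quantile normalization the counts were 10 and 3 and the median was 0.035, so no direction is given for the median itself. Relative to genes of like level the median was 0.038, and it stayed between 0.024 and 0.045 in the alternatives tried. By that measure 38 members lay above genes of like level and 31 below. Of genes of like level, 4.88% were at least 1.2-fold higher and 15.6% lower. At 1.5-fold there were 0 on either side, against 0.445% of all genes higher and 0.656% lower.

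Mrps18c, a small-subunit protein, stood highest at 0.45, from 11.9 in KO vehicle to 17.6 in KO STZ, with 16.9 and 21.4 on the WT arrays. Mrpl4 stood at 0.34, Mrps16 at 0.34, Mrpl27, whose bacterial counterpart reaches the peptidyl transferase centre, at 0.30 and Mrps31 at 0.28. For Mrps16 the second cluster gave -0.36 in place of 0.34, from 81.7 with vehicle to 62.9 with STZ. The mean of both clusters was -0.010, so no direction is given for it. Mrpl27 was dim, with 6.86 in KO vehicle and 9.32 in KO STZ. At the other end, Mrpl23 stood at -0.47, Mrpl51 at -0.40, Mrpl38 at -0.33, Mrps27, a small-subunit protein with the helical repeats of RNA-binding proteins, at -0.32 and Mrps22 at -0.30. Mrpl51 had 116.8, 112.0, 115.8 and 87.2, so it was low on the KO STZ array only.

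The STZ differences in WT and in KO share no array. Across the 69 members they had a Pearson r of 0.021 and a Spearman rho of 0.031, as a description over genes of the same 4 arrays. Over all 13258 genes r was 0.056. Of the members, 20 were above 0 in both genotypes, 12 below 0 in both, 28 above 0 in WT and below 0 in KO, and 7 the reverse. The remaining 2 members were at exactly 0 in KO. Over all 13258 genes the same counts were 3028, 3749, 3789 and 2635, in that order. Both genotypes showed at least 1.2-fold higher values with STZ for 2 members, Mrpl4 and Mrps18c, and for 171 of all 13258 genes.

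**Figure D3:**
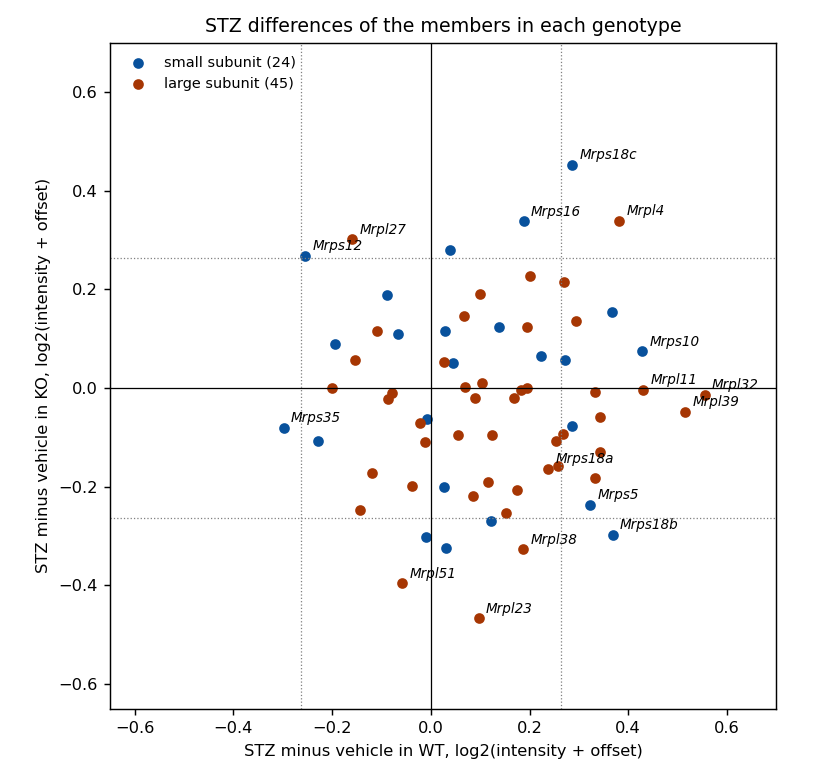
Each point is 1 of 69 members, with its STZ minus vehicle difference in WT on the horizontal axis and in KO on the vertical axis, both of log2(intensity + offset), for small-subunit (blue) and large-subunit (dark red) genes. Dotted lines mark 1.2-fold, and 28 points lie right of 0 and below 0, with Mrps18b past both lines there.

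The difference between the STZ effects, KO minus WT, had a median of -0.16 over the members and -0.048 over all genes, and 21 members were above 0 (42.9% of all genes). It was at most -0.26, which corresponds to 1.2-fold, for 25 members (22% of all genes, 27.2% of genes of like level) and at least 0.26 for 4 (13% and 7.14%). Of genes of like level, 32.5% were above 0. Under quantile normalization these were 13 and 11 and the median was -0.029. Relative to genes of like level the median was -0.053. Mrps18b stood at -0.67, Mrpl32 at -0.57, Mrpl23 at -0.56, and Mrps5 and Mrpl39 at -0.56. Past 1.5-fold was 1 member, Mrps18b, on the lower side (3.91% of all genes), and 0 on the higher side (1.76%). These counts changed with the setting. An offset of 1 put Mrpl32 (-0.61) and Mrps18b on the lower side and Mrpl27 (0.61) on the higher side. Quantile normalization and removal of the loess trend each left 0 on the lower side and put Mrps12 on the higher side, at 0.65 and 0.63. With the mean of its clusters Mrps18b stood at -0.29. On the higher side were Mrps12 at 0.52, Mrpl27 at 0.46, Mrps28 and Mrps34 at 0.28 and Mrps31 at 0.24.

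The third comparison set muscle without KLF15 against WT muscle, both with vehicle. The members showed no common shift. The median was -0.017 against -0.0039 over all genes, and 31 members were above 0 (49.1% of all genes, 47.8% of genes of like level). At least 1.2-fold higher were 7 and lower 7, against 9.07% and 9.33% of all genes. None reached 1.5-fold, against 0.581% of all genes higher and 0.777% lower.

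Mrps18a stood highest at 0.55, with 73.3, 87.1, 109.2 and 97.1. Both KO arrays were above both WT arrays. Mrpl39 stood at 0.39, Mrps18b at 0.37, Mrps25 at 0.34 and Mrps30 at 0.28. Mrps25 had 31.9 in WT vehicle and 39.2 to 43.0 on the 3 other arrays. The WT vehicle array was the lowest of the 4 for these 5 members, and the same array serves as control for the STZ difference in WT. That order holds for the brightest clusters. The second cluster of Mrps18b was highest in WT vehicle, at 65.8, and gave -0.12 in place of 0.37. On the lower side were Mrps31 at -0.41, Mrps18c at -0.40, Mrpl52 at -0.37, Mrps34 at -0.36 and Mrps15 at -0.33. Mrps15 had 330.6 and 337.5 on the WT arrays and 262.4 and 284.4 on the KO arrays, and so was lower on both KO arrays. Mrpl52 had 164.3 and 176.2 on the WT arrays and 126.4 and 144.8 on the KO arrays, with the same order.

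The fourth comparison set both STZ arrays against each other, KO against WT. The median of the members was -0.17 against -0.048 over all genes. Above 0 were 20 of 69 (29.0%), against 41.8% of all genes and 30.5% of genes of like level. At least 1.2-fold lower were 25, against 18.9% of all genes and 26.5% of genes of like level, and at least 1.2-fold higher were 5, against 9.44% and 5.46%. The median relative to genes of like level was -0.033. After quantile normalization 10 members passed 1.2-fold on the lower side and 11 on the higher side, with a median of -0.021. After removal of a loess trend there were 10 on each side. Genes of like level had a median of -0.12 in this comparison, so most of the members' lower median was shared with them.

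Of the members, 2 were at least 1.5-fold lower on the KO array, Mrpl23 and Mrpl32, against 2.81% of all genes, and 0 were 1.5-fold higher, against 0.845%. With an offset of 1 Mrps7 joined them, at -0.59. With an offset of 16 or quantile normalization Mrpl23 was the 1 member on the lower side, and under quantile normalization Mrps12 passed on the higher side, at 0.61. Mrpl23 had 102.0, 109.3, 90.7 and 64.6, with the KO STZ array low and the 3 others closer together. Its difference was -0.73, and it stayed between -0.75 and -0.59 in the 8 alternatives. Mrpl32 stood at -0.64, a difference that rests on the high WT STZ array, and ranged from -0.69 to -0.49. Mrps7, a protein of the small-subunit head, had 183.8, 200.2, 160.9 and 132.9 and stood at -0.58. Mrps5, whose bacterial counterpart lies at the entry of the messenger RNA, had 87.4, 110.2, 88.6 and 74.7 and stood at -0.54. Its second, dimmer cluster stood at -0.11. Mrps27 stood at -0.49, with 55.6, 56.9, 50.3 and 39.5.

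On the higher side in KO STZ were Mrps12 at 0.45, Mrps35 at 0.43, Mrpl27 at 0.39, Mrpl40 at 0.29 and Mrpl20 at 0.27. Mrpl40, a large-subunit protein found only in mitochondria, had 100.4, 94.3, 118.3 and 116.4, so both KO arrays were above both WT arrays. The differences between genotypes under vehicle and under STZ share no array. Across the members they had r = 0.31 and rho = 0.34, against r = 0.23 over all genes. Both treatments showed at least 1.2-fold lower values in KO for 2 members, Mrpl37 and Mrpl52, and at least 1.2-fold higher values for 0. Over all 13258 genes these counts were 428 and 220. Mrpl37, which lies outside the naming rule, was named after its values were seen. It had 185.2, 170.1, 153.1 and 135.6 and stood at -0.27 under vehicle and -0.32 under STZ.

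**Figure D4:**
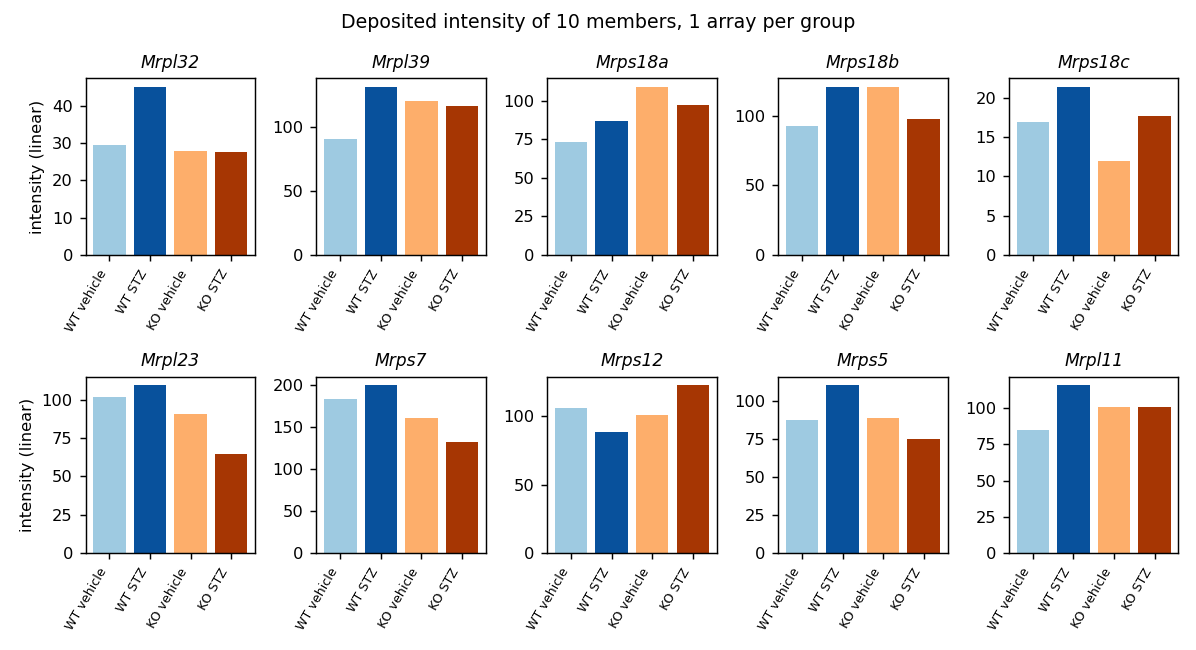
Deposited linear intensity of 10 members on the 4 arrays, 1 bar per array, with a separate vertical axis from 0 for each gene. Mrpl32 is high in WT STZ only, at 45.1 against 27.5 to 29.5, and Mrpl23 is low in KO STZ, at 64.6 against 90.7 to 109.3.

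By subunit, the 45 large-subunit members had a median of 0.12 in WT STZ (0.061 under quantile normalization) and the 24 small-subunit members that passed one of 0.041 (-0.0042). In KO STZ against KO vehicle the medians were -0.023 (0.026 under quantile normalization) and 0.061 (0.13). For KO against WT under STZ they were -0.17 (-0.043) and -0.091 (0.0093), and under vehicle -0.016 (0.0051) and -0.025 (closer to 0). The sign of several of these medians therefore turned with the scaling. The large-subunit proteins with bacterial counterparts (28) and those found only in mitochondria (17) had medians of 0.14 and 0.099 in WT STZ. The small-subunit proteins of the same kinds (14 and 10) had medians of 0.083 and 0.035. The 7 proteins around the tunnel exit (Mrpl17, Mrpl22, Mrpl23, Mrpl24, Mrpl39, Mrpl45 and Mrpl47) were all above 0 in WT STZ, with a median of 0.17, where 58.3% of genes of like level were above 0. In KO STZ against WT STZ 1 of 7 was above 0, against 29.7% of genes of like level. The 4 stalk proteins on the array had a median of 0.13 in WT STZ. Among them Mrpl12, which also binds the mitochondrial RNA polymerase, had 130.3, 148.4, 150.8 and 150.3, with WT vehicle the lowest. Its second, dimmer cluster had 11.95, 12.37, 11.37 and 11.29, with KO STZ the lowest. The 6 proteins of the central protuberance, the crest of the large subunit, had a median of 0.19 in WT STZ. Of these 6, 0 were 1.2-fold higher, against 12.6% of all genes and 15.2% of genes of like level. Differences between these sets were not tested.

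Mrps18a, Mrps18b and Mrps18c are 3 related genes, all counterparts of 1 bacterial small-subunit protein, and their products lie at different places in the mitochondrial ribosome. The 3 had different patterns. Mrps18b had 92.4, 120.4, 120.6 and 97.5, so STZ went with a difference of 0.37 in WT and -0.30 in KO. Its second cluster had 65.8, 61.0, 60.2 and 59.4, with differences of -0.10 and -0.018, and did not show that pattern. Mrps18a was higher on both KO arrays, and Mrps18c was lowest in KO vehicle, at 11.9 against 16.9 to 21.4. A second cluster of Mrps18c lay below the level filter.

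Mitochondrial ribosomes also hold proteins whose symbols do not match the pattern, and 3 of them were on single-symbol clusters. Dap3, a GTP-binding small-subunit protein, had 46.7 and 51.6 on the WT arrays and 33.2 and 35.2 on the KO arrays, which gave -0.45 under vehicle and -0.51 under STZ. Both KO arrays were below both WT arrays. Ptcd3, a small-subunit protein with RNA-binding repeats, had 159.7, 197.4, 199.4 and 177.3, with WT vehicle lowest, and stood at 0.30 in WT STZ. Gadd45gip1, a large-subunit protein, stood at 0.20.

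Of 18 assembly factors of the mitochondrial ribosome, 3 were at least 1.2-fold higher (15.2% of genes of like level) and 0 lower (9.21%) in WT STZ, with a median of 0.067, or 0.035 relative to genes of like level. Noa1, a GTPase needed for mitochondrial translation, had 40.8, 51.4, 39.6 and 29.0 and stood at -0.75 in KO STZ against WT STZ. Fastkd2, an RNA-binding protein, stood at -0.52 and Mrm1, a ribosomal RNA methyltransferase, at 0.49 there. Mterf3 stood at 0.44 in WT STZ. Of 14 translation factors, 2 were 1.2-fold higher (15.7% of genes of like level) and 2 lower (8.12%) in WT STZ, with a median of -0.11. Mss51 had 147.5, 338.7, 158.5 and 235.8 and stood at 1.18 in WT and 0.56 in KO with STZ, so both STZ arrays were above both vehicle arrays. In yeast, Mss51 is a translational activator of a cytochrome oxidase subunit. Guf1, an elongation factor, stood at -0.50 in KO STZ against WT STZ and Mtrf1, a release factor, at -0.49 in KO vehicle against WT vehicle.

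Of 18 mitochondrial aminoacyl-tRNA synthetases and related enzymes, which charge transfer RNAs, 6 were at least 1.2-fold lower (18.9% of all genes, 22.2% of genes of like level) and 1 higher (9.44% and 9.12%) in KO STZ against WT STZ. Their median was -0.20, and -0.13 relative to genes of like level. Iars2 stood at -0.59, Fars2 at -0.50 and Nars2 at -0.40, while Vars2 stood at 0.45. Of 14 genes that copy, transcribe or process mitochondrial DNA and RNA, 4 were 1.2-fold lower (21.3% of genes of like level) and 0 higher (8.58%) in that comparison. Their median was -0.22, or -0.11 relative to genes of like level. Polrmt, the mitochondrial RNA polymerase, had 37.1, 49.3, 49.5 and 41.6, with both WT STZ and KO vehicle high. Trmt10c stood at -0.53, Tfb2m, a transcription factor of mitochondrial DNA, at -0.46 and Mterf2 at -0.45.

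The products that mitochondrial ribosomes make were read by 10 clusters for messages of mitochondrial DNA. All 10 were above 0 in WT STZ (53.8% of genes of like level), with a median of 0.079, or 0.060 relative to genes of like level. In KO STZ against WT STZ 0 of 10 were above 0 (17.6% of genes of like level), with a median of -0.19. Genes of like level had a median of -0.16 there, and the 10 messages stood at -0.029 relative to them. These genes are the brightest of the 20 bins, with a mean log2 value of 9.54. All 10 messages were brighter than that, so the match in level is loose. Skeletal muscle markers, which fall in the same bin, stood at a median of -0.032 in that comparison. Whether the shift of the messages is shared with genes as bright was not tested. ND6 had 2084, 2327, 1632 and 1511, which gave -0.35 in KO vehicle and -0.62 in KO STZ against WT. COX1 had 6579, 7129, 6271 and 6148. Among 10 regulators, Ppargc1a, which encodes PGC-1alpha, had 136.9, 110.7, 187.4 and 114.8, with the KO vehicle array high, and stood at -0.30 in WT and -0.69 in KO with STZ. Esrra, a nuclear receptor that works with it, stood at 0.13 and 0.48. Myc stood at -0.30 and 0.25, and Esrrg at 0.21 and -0.14.

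In WT STZ the 74 oxidative phosphorylation subunits had a median of 0.087 and the 60 cytosolic ribosomal proteins one of 0.25, beside 0.12 for the members. Relative to genes of like level these were 0.068, 0.22 and 0.071. In KO STZ against WT STZ the medians were -0.15 and -0.25, beside -0.17, and relative to genes of like level -0.0095 and -0.14, beside -0.033. In both comparisons the members and the oxidative phosphorylation subunits thus stood closer together and the cytosolic ribosomal proteins farther out. For KO against WT under vehicle the medians relative to genes of like level were 0.065 and -0.054, beside -0.0095 for the members. For STZ in KO they were 0.0033 and 0.11, beside 0.038. The members thus did not stay beside the oxidative phosphorylation subunits throughout. None of these differences between groups was tested.

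**Figure D5:**
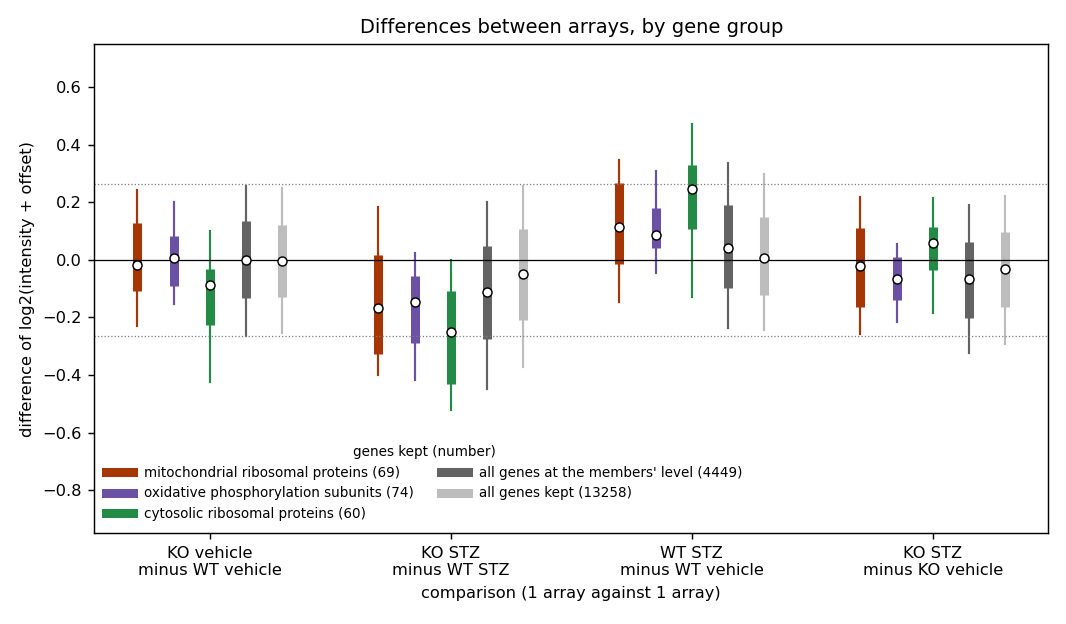
Differences of log2(intensity + offset) in the 4 pairwise comparisons for members, oxidative phosphorylation subunits, cytosolic ribosomal proteins, 4449 genes between percentiles 10 and 90 of the members' level and all 13258 genes kept. White points are medians, thick bars run from percentile 25 to 75 and thin lines from 10 to 90, over genes and not over animals. In KO STZ minus WT STZ the members' median of -0.17 lies beside -0.11 for genes of the members' level.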

How the data were processed

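The deposited table holds 1 linear intensity per transcript cluster and array for 41345 clusters, as the authors deposited it. The sources used here do not say how the authors corrected, summarised and normalized these intensities. Median log2 values of the arrays lay within 0.035, and values were used as deposited. Clusters were named from GEO's platform annotation (23521 with 1 symbol, 1814 with several, 16010 unlisted). Intensities were turned into log2(intensity + 3.69). Genes with a mean above the median of all clusters (intensity 5.81) were kept, and differences were taken between single arrays. Counts used 1.2-fold and 1.5-fold limits, and genes of like level were taken from 20 equal bins. No test was made, since each group has 1 array, and the number of arrays limits the precision. Alternatives were offsets of 1 and 16, quantile normalization, a loess trend (span 0.3), centring, no filter or a filter at percentile 75, and the mean of all clusters. Members and gene lists were chosen with earlier results of these data known.

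Genes named are members at either end of brightness or of a comparison (5 each way), members past 1.5-fold, Mrps18a, Mrps18b, Mrps18c, Mrpl12, Mrps12, members whose clusters disagree in sign, and up to 4 genes per other list with the largest differences. Exceptions are marked. Counting was tested on simulated data. Python 3.11.15, numpy 2.4.6, pandas 2.3.3, scipy 1.17.1, statsmodels 0.14.6 and matplotlib 3.10.9 were used.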

Additional observations from a re-analysis of the deposited data

Results flagged for a closer look

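Mrps18b stood out because its STZ differences had opposite signs in WT and KO and both passed 1.2-fold. The log2 difference was 0.37 in WT and -0.30 in KO, each from 1 array against 1. Its second cluster gave -0.10 and -0.018. The difference between genotypes was not tested.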

How the results depend on the processing

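No paired analysis was possible because each group has 1 array and the labels carry no replicate numbers. Nor could an array be left out. Of 120 recomputed medians and counts over the members, 93 stayed close to the reported value, 27 moved and 0 with a reported median of at least 0.1 turned sign. With an offset of 16, 1.2-fold counts were 3 higher and 4 lower for KO against WT under vehicle, 3 higher under STZ, 11 higher and 0 lower for STZ in WT, 3 higher and 4 lower for STZ in KO, and 1 higher for the difference of the STZ effects. An offset of 16 shrinks differences of dim genes by construction. Quantile normalization gave a median of -0.021 with 11 higher and 10 lower for KO against WT under STZ, 11 and 3 for STZ in WT, 10 and 3 for STZ in KO, and -0.029 with 11 and 13 for the difference of the STZ effects. Without the loess trend these were -0.038 with 10 and 10, 3 lower for STZ in WT, 3 lower in KO, and -0.051 with 9 higher. Centring gave 2 lower for STZ in WT and 7 higher for the difference of the STZ effects. The cause was not tested. Medians relative to genes of like level moved less, from -0.037 to -0.027 for KO against WT under STZ and from 0.062 to 0.077 for STZ in WT. Of 1500 values for single genes, 1350 moved by less than 0.1 and 55 changed sign. Of these 55, 50 had a reported difference under 0.1 and 1 had one of at least 1.2-fold, Mrps16 for STZ in KO, at -0.010 with the mean of its clusters. With no filter 71 members entered, and 65 at percentile 75. The dimmest members lay close to the level filter, which limits their differences.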
